A study of Mus musculus with 18 samples.

Results

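Cycling pallial radial glia are the dividing stem cells of the embryonic cortex. In nuclei of mouse forebrain at embryonic day 14 (E14) they were chosen by 14 genes. A nucleus belonged to the group when at least 2 of the dorsal, or pallial, genes Pax6, Emx2, Veph1 and Dmrta2 and at least 3 of the mitotic genes Top2a, Mki67, Cenpf, Tpx2, Kif11 and Aspm had at least 1 unique molecular identifier (UMI, 1 counted transcript). It also had to lack Eomes, Dlx1, Dlx6os1 and Otx2. Cycling here means that genes of G2 and M phase were detected, and nuclei in S phase can lie on either side of the rule. Of 201913 nuclei that passed the limits on UMIs, genes and mitochondrial share, 4318 met this rule (2.14%). Each animal gave 301 to 716 of them and each library 59 to 585, and no member barcode occurred in more than 1 library.

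The study asked how loss of the neuronal transcription factor MYT1L alters the developing forebrain. Forebrains of 3 wild-type (WT), 3 heterozygous (Het) and 3 homozygous mutant (KO) embryos were profiled by combinatorial-barcoding single-nucleus RNA-seq. Every animal had 2 libraries, labelled run 1 and run 2, which gave 18 libraries. The labels do not say what a run was. The mutant embryos carry the germline frameshift allele S710fsX on a C57BL/6 background, on 1 copy in Het and on both in KO, and WT embryos carry the same strain label. The tissue came from 3 litters. In run 1 the genotype tag disagreed with the title for 6 of 9 libraries, all tagged WT, whereas in run 2 it matched for all 9. Groups were therefore taken from the titles. The methods describe males and females in each genotype, but in the RNA 1 of 9 animals was female and it was WT 3. Its members held 978 Xist UMIs and 6 UMIs of 4 Y-linked genes, where the other 8 animals had 0 to 1 and 669 to 1560. Both runs of each animal gave the same sex. Sex was not in the model, and it cannot be told apart from this 1 animal, so part of the values that rest on WT 3 are also given without it. The nuclei that passed held 45000899 to 77942146 UMIs an animal.

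Radial glia line the ventricle, where they divide, and stretch a fibre to the brain surface. In the pallium they give rise to excitatory neurons, directly or through intermediate progenitors that switch on Eomes. Progenitors of the ventral forebrain use Dlx genes instead and give rise to inhibitory neurons. The nucleus of a radial glial cell travels with the cell cycle, away from the ventricle for DNA synthesis (S phase) and back to it for mitosis, so that G2 and M phases run next to the ventricle. MYT1L is known from neurons that have left the cell cycle.

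Genes of G2 and M phase commonly share short promoter motifs. The CCAAT box is bound by NF-Y, and the CHR element (TTTGAA or TTCGAA) by the DREAM complex, which represses such genes in resting cells, and the B-MYB-MuvB complex, which activates them late in the cycle. The sequences shown are the 160 bases before the start of the 4 highest-ranked leading genes that had an entry, chosen because these genes set the members apart most from non-cycling pallial nuclei, and of Top2a and Mki67, a pair of genes of the rule. They are RefSeq promoters of build GRCm38.p6, written 5′ to 3′ on the strand of the gene. Capitals mark the CCAAT box and the CHR element on either strand. The box reads ATTGG where it lies on the opposite strand, and the first CHR form then reads TTCAAA.
Troap, chr15:99074813-99074972, + strand: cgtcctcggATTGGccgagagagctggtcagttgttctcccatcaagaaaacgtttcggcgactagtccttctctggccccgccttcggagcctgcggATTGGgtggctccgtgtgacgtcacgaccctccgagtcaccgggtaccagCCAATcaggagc
Depdc1a, chr3:159495273-159495432, + strand: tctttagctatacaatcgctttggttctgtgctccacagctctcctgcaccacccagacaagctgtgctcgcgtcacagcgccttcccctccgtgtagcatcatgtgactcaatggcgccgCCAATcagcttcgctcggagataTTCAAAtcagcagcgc
Cenpa, chr5:30666726-30666885, + strand: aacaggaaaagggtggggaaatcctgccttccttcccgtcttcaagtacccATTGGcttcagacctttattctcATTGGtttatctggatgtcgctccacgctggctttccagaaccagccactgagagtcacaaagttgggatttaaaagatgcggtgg
Parpbp, chr10:88146942-88147101, - strand: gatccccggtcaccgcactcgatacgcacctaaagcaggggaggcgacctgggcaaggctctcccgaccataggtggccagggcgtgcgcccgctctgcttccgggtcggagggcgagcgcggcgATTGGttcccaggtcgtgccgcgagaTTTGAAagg
Top2a, chr11:99024190-99024349, - strand: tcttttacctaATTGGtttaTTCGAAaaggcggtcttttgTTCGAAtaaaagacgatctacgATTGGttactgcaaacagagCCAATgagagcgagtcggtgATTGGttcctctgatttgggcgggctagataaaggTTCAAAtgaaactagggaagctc
Mki67, chr7:135716380-135716539, - strand: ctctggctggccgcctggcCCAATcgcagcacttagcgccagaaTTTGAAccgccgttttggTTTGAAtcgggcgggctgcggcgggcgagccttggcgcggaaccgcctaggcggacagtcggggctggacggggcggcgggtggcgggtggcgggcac

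In these 160 bases every gene shown held CCAAT on 1 strand or the other. Counted from the first letter of the match, the copy closest to the start lay 12 bases before it in Troap, 35 in Parpbp, 39 in Depdc1a, 58 in Top2a, 86 in Cenpa and 141 in Mki67. A CHR element lay 16 bases before the start in Depdc1a and 9 bases before it in Parpbp. Top2a held 3 of them, at 140, 120 and 23 bases, and Mki67 held a pair at 116 and 98 bases. In Troap and Cenpa no CHR element lay in the window shown, and Cenpa had TTTGAA 17 bases after the start. Over the whole table, which reaches from 250 bases before to 50 bases after each start, 8.61% of 27025 genes held CCAAT together with a CHR element. Of 12 leading genes 8 had an entry, and 5 of the 8 held both. Of the G2/M list 58 of 67 genes had an entry and 37 of them (63.8%) held both, against 6 of 35 (17.1%) for the S-phase list and 2 of 24 (8.33%) for the radial glia list. The E2F motif TTTGGCGC occurred in 8 of 35 S-phase genes (22.9%), in 4 of 58 G2/M genes (6.9%) and in 0.585% of all genes, and the related TTTCCCGC in 5 of 35 (14.3%), 3 of 58 (5.17%) and 1.24%. All searches covered both strands, and TTCGAA reads the same on both. A match is a description of the letters.

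Genes that the rule did not use gave a further description of the members. Levels are given as CPM, the UMIs of a gene scaled to 1e6 UMIs of the same nuclei in 1 animal, averaged over the 9 animals. The 29 genes of radial glia and other progenitors summed to 13110 CPM in the members (12140 to 14190 by animal), against 7441 CPM in cycling Dlx nuclei, 8074 CPM in cycling Eomes nuclei and 3496 CPM in excitatory neurons. Slc1a3, the glutamate transporter of radial glia, stood at 639 CPM in the members, 153 CPM in cycling Dlx nuclei and 247 CPM in cycling Eomes nuclei. Hopx, a marker of outer and of long-lived radial glia, stood at 21.8, 2.1 and 5.44 CPM. Markers of other cells varied. The excitatory neuron list summed to 2050 CPM in the members against 23300 CPM in excitatory neurons, and Gria2, a glutamate receptor subunit, took 787 CPM of it. The inhibitory list summed to 89.2 CPM (2250 CPM in cycling Dlx nuclei), and the microglial genes C1qa and C1qb and the choroid plexus gene Ttr averaged 0.0422, 0.0708 and 0.206 CPM. The same list also holds genes of Cajal-Retzius neurons. In it Reln stood at 71.4 CPM, the pericyte gene Pdgfrb at 7.86 CPM and the microglial gene Cx3cr1 at 4.08 CPM. The excitatory list holds Neurod2, Neurod6 and Tbr1, by which the excitatory neurons were chosen. The inhibitory list holds further Dlx genes, while the rule excluded Dlx1 and Dlx6os1 and cycling Dlx nuclei were chosen by them. Both contrasts therefore follow in part from the choice of nuclei. These levels describe groups that were formed by genes measured in the same nuclei, so no test was made of them.

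Among the rule genes, the 6 mitotic genes were near 0 in pallial nuclei without them by construction. Top2a, which untangles DNA before chromosomes part, ranged from 1210 to 1480 CPM over the 9 animals. Mki67, which coats mitotic chromosomes, had its lowest level in the KO animal numbered 1 (875 CPM) and its highest in Het 3 (1500 CPM). Aspm, the spindle protein whose loss causes microcephaly, ranged from 360 to 449 CPM. Pax6 stood at 427 CPM in the members and 387 CPM in pallial nuclei without mitotic genes, and Emx2 at 138 and 187 CPM. Most members had exactly 2 of the 4 pallial genes (3480), and 770 had 3 and 68 had all 4. For the mitotic genes 935 members had 3 of the 6, 1022 had 4, 1197 had 5 and 1164 had all 6. Just outside the threshold lay 880 pallial nuclei with 2 of the 6. Before the 4 excluded genes were applied 5885 nuclei met the rule, and 1003 of them had Eomes.

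Detection followed depth. The median member held 3490.5 UMIs and 2087 genes, against 2562 UMIs and 1556 genes over all nuclei. From 3 to 6 mitotic genes the median rose from 2869 to 4193 UMIs. The upper limits of 6000 UMIs and 3000 genes removed 1559 of the 5877 nuclei that met the gene rule (26.5%), against 16.2% of all nuclei and 10.5% of pallial nuclei with no mitotic gene. The members are therefore short of the RNA-rich nuclei of the same kind.

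The genes that led over non-cycling pallial nuclei are mostly known from mitosis. Folds have 1 CPM added on both sides and describe groups that the rule made. Pif1, a helicase that acts at telomeres and DNA forks, stood at 180.2 CPM (149 to 214 by animal) against 1.15 CPM, 84.3-fold. Troap, a spindle-associated protein, stood at 106 against 0.776 CPM and Depdc1b at 104 against 0.927 CPM. Depdc1a followed at 256 against 3.71 CPM (54.5-fold). Cenpa, the histone H3 variant of the centromere, stood at 206 against 3.3 CPM (48.2-fold). Cep55 (43-fold) acts in abscission of the daughter cells, Kif23 (33.6-fold) in the central spindle, Hmmr (32.8-fold) in spindle assembly and Cdca2 (33.1-fold) in chromatin reassembly after mitosis. Parpbp stood at 115 against 1.47 CPM and Arhgef39 at 57.8 against 0.649 CPM. Other dividing nuclei carried these genes too. Their levels in cycling Dlx nuclei ran from 45.9 CPM for Arhgef39 to 398 CPM for Kif23.

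**Figure D1:**
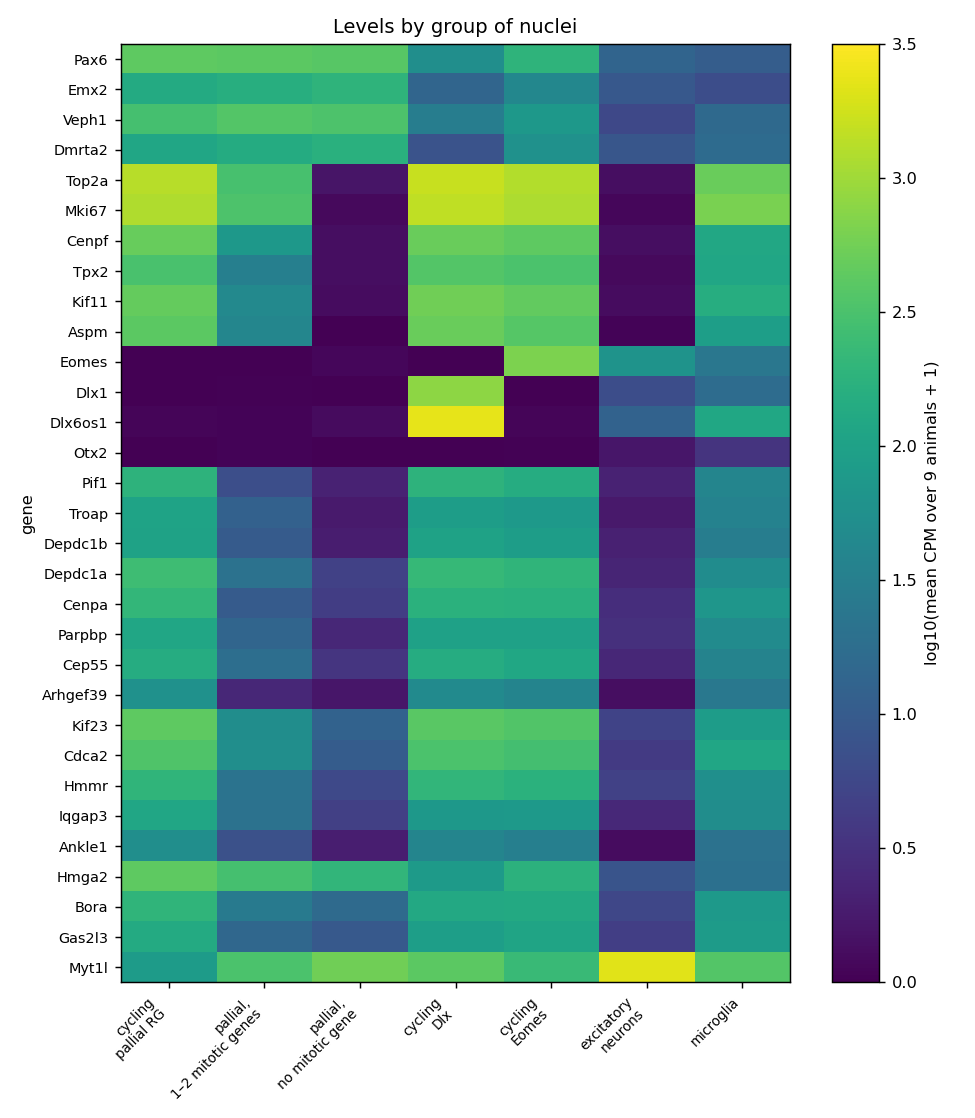
Mean level over 9 animals, as log10(CPM + 1), of the 14 rule genes, leading genes and Myt1l (rows) in 7 groups of nuclei (columns). Top2a stood at 1350, 1614 and 1260 CPM in the members, cycling Dlx and cycling Eomes nuclei. Pax6, Emx2, Veph1, Dmrta2 and Hmga2 were highest in pallial groups. All of these but Hmga2 are genes of the rule by which the pallial groups were chosen. The order of those rule genes therefore follows in part from the choice of nuclei. Myt1l was lowest in the members, at 81.8 CPM.

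Against all other nuclei, other dividing progenitors included, the 12 largest folds outside the rule ran from 6.04 to 6.78. Arhgef39 led at 6.78-fold and Depdc1a followed at 6.6-fold. Hmga2, a chromatin protein that sustains self-renewal of young neural stem cells, stood at 425 CPM in the members (321 to 493 by animal), 201 CPM in non-cycling pallial nuclei, 80.3 CPM in cycling Dlx and 174 CPM in cycling Eomes nuclei. No animal of the cycling Dlx group (64.8 to 95.7 CPM) or cycling Eomes group (158 to 198 CPM) reached the lowest level of the members. Pallial nuclei with 1 or 2 mitotic genes did, at 291 CPM (203 to 368), and the fold over non-cycling nuclei was 2.11 under the first rule and 1.5 under the stricter rule described next. Iqgap3, Ankle1, Bora (an activator of the Aurora A and Plk1 kinases) and Gas2l3 also stood among them, with 6.54, 6.4, 6.15 and 6.04-fold.

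Pallial nuclei with no mitotic gene also carried markers of another cell type. They had Reln, the secreted guidance protein of Cajal-Retzius neurons, at 3765 CPM (1740 to 5930 by animal) and Trp73, a factor those neurons need, at 172 CPM, where the members had 71.4 and 3.6 CPM. Emx2 and other pallial genes are also known from Cajal-Retzius neurons. A stricter rule was therefore added after these levels were seen. It asked for at least 2 of Sox2, Hes1, Hes5, Slc1a3 and Fabp7 and for none of Reln, Trp73, Neurod2, Neurod6, Tbr1, Gad1 and Gad2, and it left 317 of 1513 non-cycling nuclei and 1462 of the 4318 members. Under it Reln stood at 1.71 CPM in members and 2 CPM in non-cycling nuclei. Cenpa then stood at 210.5 against 2.51 CPM (60.2-fold) and Kif23 at 452 against 13.6 CPM (31.1-fold), while Pif1 had 0 counts in the narrower non-cycling group. Myt1l stood at 81.8 CPM in the members and 549 CPM in non-cycling pallial nuclei under the first rule, and at 41.8 and 48.2 CPM under the stricter one.

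Gene lists of the cell cycle were compared between the members and other groups. The 67 G2/M genes summed to 12710 CPM in the members, 12630 CPM in cycling Dlx and 11100 CPM in cycling Eomes nuclei, against 1372 CPM in non-cycling pallial nuclei. Smc4, a condensin subunit, was at 825 CPM in the members and 148 CPM in non-cycling pallial nuclei. The S-phase list summed to 3797 CPM in the members, 2682 CPM in non-cycling pallial nuclei and 4177 CPM in pallial nuclei with 1 or 2 mitotic genes, and under the stricter rule to 3653 CPM in members and 4027 CPM in non-cycling nuclei. Pola1, the catalytic subunit of the polymerase that primes replication, stood at 456 and 595 CPM in those same groups, so the nuclei called non-cycling lacked mitotic genes but not S-phase genes. Genes of the spindle and centrosome that include those mutated in primary microcephaly summed to 5628 CPM in the members and 2385 CPM in non-cycling pallial nuclei. Cyclins, their kinases and E2F factors summed to 2072 against 1370 CPM.

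**Figure D2:**
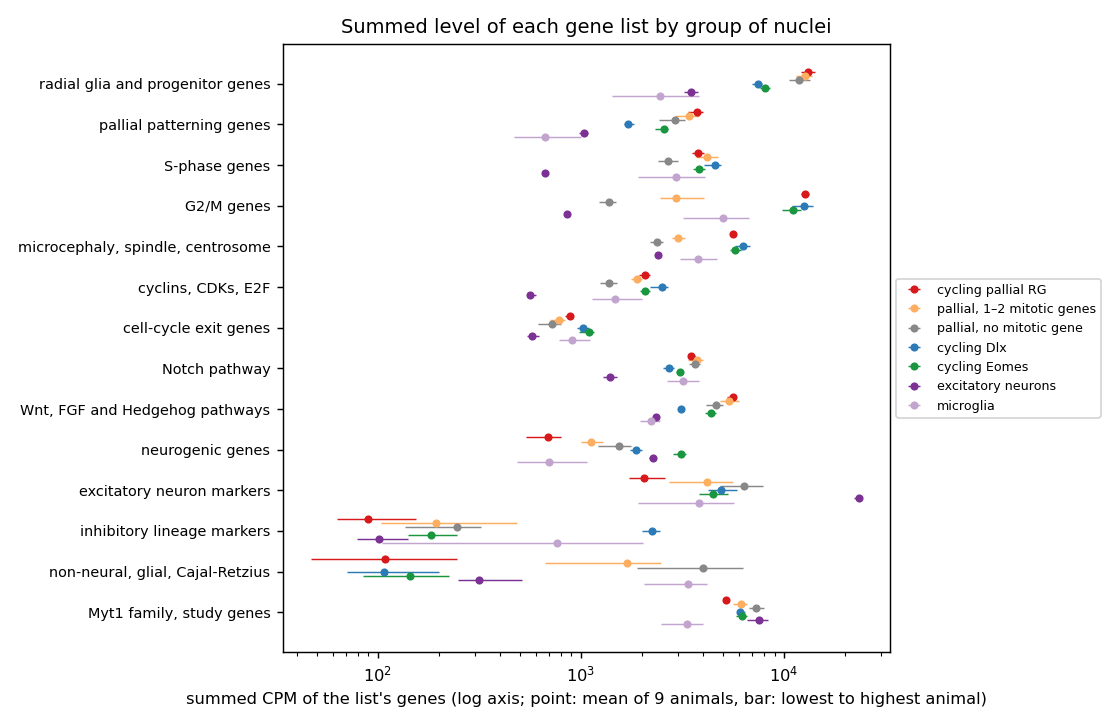
Summed CPM of each of 14 gene lists (rows, log axis) in 7 groups of nuclei. Points are means over 9 animals and bars run from the lowest to the highest animal. The members sat with the other cycling groups for G2/M genes (12710 CPM) and with the pallial groups for radial glia genes (13110 CPM). They had the lowest sum of excitatory neuron markers (2050 CPM). Their sum of neurogenic genes (689 CPM) lay beside that of microglia (697 CPM), and the rule had left out nuclei with Eomes.

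Several signalling genes stood higher in the members than in the other dividing progenitors, as a description of levels. Pallial nuclei with fewer mitotic genes carried these pathways too. The Notch pathway list summed to 3492 CPM in the members. It summed to 3741 CPM in pallial nuclei with 1 or 2 mitotic genes and 3665 CPM in those with none. The Wnt, FGF and hedgehog list summed to 5606, 5371 and 4610 CPM in the same order. Under the stricter rule that list had 5596 CPM in members and 5380 CPM in non-cycling nuclei. Cdon, a co-receptor of Sonic hedgehog, stood at 1691 CPM in the members, 302 CPM in cycling Dlx and 968 CPM in cycling Eomes nuclei. Gli3, the factor that represses hedgehog targets and secures dorsal fate, stood at 1474, 424 and 725 CPM. Tcf7l1, a Wnt-pathway repressor, was at 444, 89.6 and 217 CPM. Of the Notch receptors, Notch2 stood at 353 CPM in the members against 95.5 and 161 CPM, and Notch3 at 180 against 62.1 and 78.1 CPM, while Notch1 was at 281, 243 and 214 CPM. The Notch ligand Dll1 had the reverse order, at 12.3 CPM in the members, 62.9 CPM in cycling Dlx and 84.9 CPM in cycling Eomes nuclei. The Notch target Hes1 was at 34, 6.59 and 13.8 CPM. Among cell-cycle exit genes, Cdkn1c, a kinase inhibitor of cells leaving the cycle, stood at 4.98 CPM in the members and 24.7 CPM in cycling Eomes nuclei. The neurogenic list summed to 689, 1864 and 3108 CPM.

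Balance between S phase and G2/M varied within the members. The S-phase list took a median of 11 UMIs in a member and the G2/M list a median of 42 UMIs, and in 543 members (12.6%) the S-phase UMIs were more numerous. Neither list holds a gene of the rule. The S-phase share of these cell-cycle UMIs was 42.2% in members with 3 mitotic genes, 30.2% with 4, 19.6% with 5 and 13.9% with all 6. By animal it ran from 36.1% to 45% at 3 genes and from 13.1% to 16% at 6, with no overlap. The steps count genes of G2 and M phase, and the share sets S-phase UMIs against G2/M UMIs. The order therefore follows in part from how the nuclei were sorted. Depth also rose along the same steps, and its part in this order was not tested.

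The members also differed by the pallial gene through which they entered. Pax6 is known to run high in the rostral and lateral cortex and Emx2 high in the caudal and medial cortex. Pax6 without Emx2 was seen in 2422 members, Emx2 without Pax6 in 360, both in 1394 and neither in 142. Median depths of the first pair of groups were close, at 3455 and 3560.5 UMIs. Wnt8b, a signal of the medial pallium next to the cortical hem, stood at 51.5 CPM (31.1 to 111) on the Emx2 side and 8.87 CPM (4.83 to 16.1) on the Pax6 side, and it was higher on the Emx2 side in 9 of 9 animals. Tmem132c stood at 330 against 111 CPM, likewise in 9 of 9. On the Pax6 side Sfrp1, a secreted Wnt inhibitor, stood at 546 against 356 CPM, Tox at 735 against 317 CPM, Ntn4, a netrin, at 185 against 83.6 CPM and Thsd4 at 492 against 253 CPM, each higher on that side in 9 of 9 animals. Reln stood at 262 CPM (17.4 to 1920) on the Emx2 side and 33.5 CPM (20.4 to 67) on the Pax6 side, higher on the Emx2 side in 6 of 9 animals, and the part of Cajal-Retzius nuclei in this split was not tested. Lhx2, the selector of cortical fate, was at 239 CPM on the Emx2 side and 189 CPM on the Pax6 side. Other patterning genes varied. Zic1 stood at 68 against 40.8 CPM, higher on the Emx2 side in 9 of 9 animals. Nr2f1 stood at 521 against 500 CPM and Nr2f2 at 66.5 against 74.4 CPM, higher on the Emx2 side in 5 and 4 of 9. The position of these nuclei in the cortex was not tested. The hem signals Rspo2 and Wnt3a and the hem factor Lmx1a rested on few animals, with Rspo2 reaching 1240 CPM in 1 animal and 0 in another on the Emx2 side. The Emx2 side held only 12 to 55 nuclei in an animal, and genes were picked for their fold between these sides, so no test was made.

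**Figure D3:**
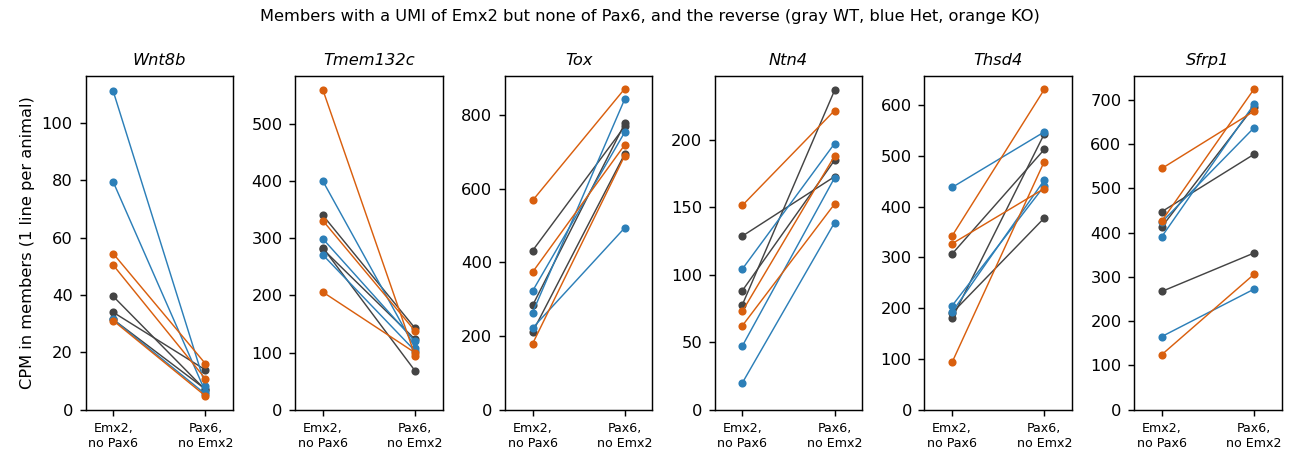
CPM in the members of each of 9 animals, split into nuclei with a UMI of Emx2 and none of Pax6 (left in each panel) and the reverse (right). Lines join the values of 1 animal and colours give its genotype. All 9 lines fall for Wnt8b and Tmem132c and rise for Tox, Ntn4, Thsd4 and Sfrp1.

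The frameshift cannot be read from gene counts, so Myt1l did not check the genotypes. In the members it stood at 134, 50.2 and 78.1 CPM in WT, 145, 60 and 60.5 CPM in Het and 108, 46.9 and 54.5 CPM in KO animals. Those levels overlapped between genotypes (KO against WT log2 fold change -0.32 ± 0.38 SE, n = 3 a group, edgeR adjusted p = 0.9999). Microglia, a cell type outside the neural lineage, stood at 359 CPM (236 to 510) over 336 nuclei, above every animal's level in the members. They also held Dlx6os1 at 119 CPM and the excitatory neuron list at 3825 CPM, so they do not set a clean floor. The level in the members is not read as expression. The part of free RNA or of mixed nuclei was not tested. Median depths were 3490.5 UMIs in the members and 2401 UMIs in microglia. In excitatory neurons Myt1l stood at 1850 to 2030 CPM in WT, 2050 to 2330 CPM in Het and 2370 to 2620 CPM in KO animals, so its transcript was not lower in either mutant. The family members Myt1 and St18 averaged 20.1 and 9.26 CPM in the dividing pallial nuclei, against 243 and 225 CPM in cycling Dlx nuclei.

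The share of cycling pallial radial glia overlapped between genotypes. Their part of all nuclei was 1.45%, 2.7% and 2.44% in the WT animals, 1.6%, 2.63% and 1.92% in Het and 1.97%, 2.35% and 2.17% in KO. That gave 2.2% ± 0.66 (SD, n = 3) in WT, 2.05% ± 0.53 in Het and 2.16% ± 0.19 in KO. WT 1 and Het 1, the animals with the lowest share, also had the lowest median depth of members (3073 and 3025 UMIs). On the natural log odds scale KO minus WT was 0.0154 (95% interval -0.38 to 0.411) and Het minus WT was -0.0575 (-0.453 to 0.338), with limma adjusted p = 0.991 and 0.891.

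The share of pallial nuclei that had at least 3 mitotic genes likewise overlapped. Its denominator holds the nuclei with Reln and Trp73 described above. Of all nuclei with at least 2 pallial genes and no excluded gene, the members were 50.9%, 55.7% and 57.3% in WT, 52.6%, 56% and 53.1% in Het and 54%, 52.6% and 52.9% in KO. KO minus WT was -0.0586 on the log odds scale (-0.254 to 0.137), and Het minus WT was -0.0304 (-0.226 to 0.165), with limma adjusted p = 0.905 and 0.891. Exact two-sided permutation p was 0.6 and 0.9, where 3 against 3 animals cannot go below 0.1. In run 1 all 3 Het animals (44.1% to 49.8%) lay below all 3 WT animals (52% to 55.3%), with a log odds difference of -0.251 (limma adjusted p = 0.506), while in run 2 Het gave 53.8% to 59.1% and WT 50.5% to 58.5%. KO gave 45.8% to 52.4% in run 1 and 53.5% to 54.7% in run 2. Among nuclei of the stricter rule the WT animals had 59.3% to 65.8%, the Het animals 59.9% to 65.2% and the KO animals 59.3% to 65%. Thinned to 1000 UMIs a nucleus, the same share ran from 24.4% to 31.7% and the difference turned positive for KO (0.0621) and for Het (0.168).

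The S-phase share of cell-cycle UMIs did not overlap between KO and WT in the members, but it did with no upper limits on UMIs and genes, after thinning and in each run. It was 22.3%, 22.5% and 22.1% in the WT animals and 23.5%, 24.6% and 23.4% in the KO animals, while Het spread from 21.6% to 24.7% over both. KO minus WT was 0.0856 on the log odds scale (-0.0809 to 0.252) and did not pass, with limma adjusted p = 0.905. That interval and p rest in part on the spread of the other shares in the same fit. The SD of this share itself was 0.22 percentage points in WT and 0.67 in KO. By exact permutation p was 0.1, which is as low as 3 against 3 can go. Run 1 gave 22.4% to 28.1% in WT and 25% to 32.4% in KO, and run 2 gave 21% to 22.3% in WT and 22% to 22.7% in KO. Each KO animal lay above the WT animal of its number in the pooled runs, in run 1 (22.4% and 25%, 28.1% and 32.4%, 25.4% and 30.1% in WT and KO) and in run 2 (22.3% and 22.7%, 21% and 22.3%, 21.4% and 22%), and with the replicate block the pooled difference did not pass (limma adjusted p = 0.817). With no upper limits the difference was 0.043, at 23% to 23.7% in WT and 23.5% to 24.6% in KO. Under the stricter rule the genotypes stayed apart, at 19.1% to 21.4% in WT and 22.4% to 24.8% in KO. After thinning the ranges were 15.3% to 18.7% in WT and 15.9% to 18.9% in KO, and KO 3 (18.6%) lay just below WT 3 (18.7%).

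**Figure D4:**
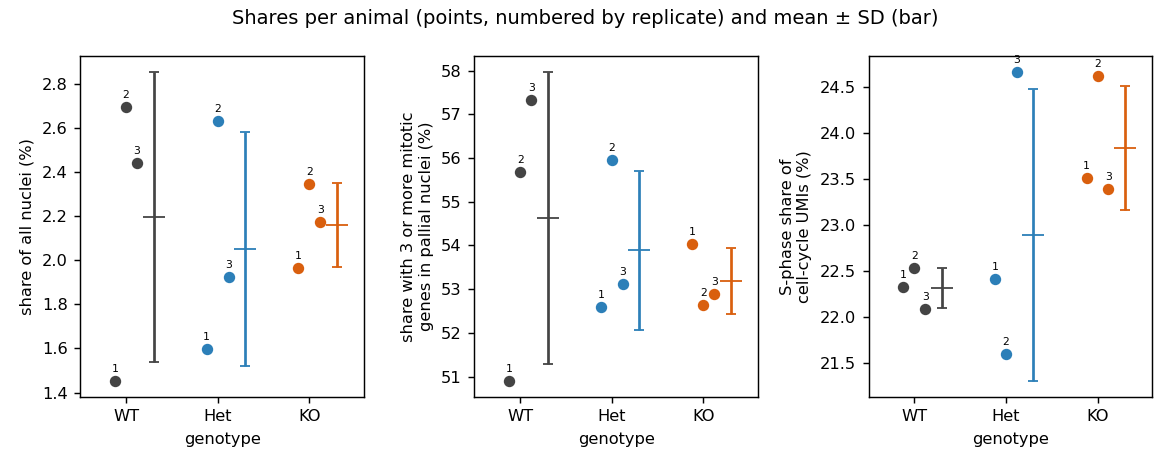
Share of members among all nuclei, share of pallial nuclei with at least 3 mitotic genes, and S-phase share of cell-cycle UMIs in the members, in percent, for each animal (points, numbered by replicate), with mean ± SD (n = 3). The genotypes overlapped in the first pair of panels, and in the S-phase panel all 3 KO animals (23.4% to 24.6%) lay above all 3 WT animals (22.1% to 22.5%), with Het on both sides.

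No gene passed the test between genotypes in these nuclei. Counts were summed over the members of each animal, which gave 1062904 to 2635492 UMIs an animal, and 11821 genes were tested with edgeR's quasi-likelihood test. A call needed an adjusted p under 0.05 and a log2 change beyond 0.2. There were 0 calls in KO and 0 in Het (0.0% of genes tested in each), with 343 genes (2.9%) and 353 genes (2.99%) at an unadjusted p under 0.05. DESeq2 also gave 0 and 0, with 64 and 62 genes at that level. The 95% interval of the log2 fold change lay within 2-fold in either direction for 10195 genes in KO (86.2%) and 10064 in Het (85.1%). Among 2279 genes of at least 100 CPM it did so for 2272 and 2269. The KO change also did not pass a test of difference between members and non-cycling pallial nuclei (0 of 10749 genes, 423 at unadjusted p under 0.05, and 0 and 473 for Het, with DESeq2 at 0 and 0 and 73 and 109). Blocking on replicate number called 1 gene for KO, the ephrin receptor gene Epha6 (log2 difference 1.57 ± 0.30 SE and edgeR adjusted p = 0.18 unblocked). It was also called with at least 4 mitotic genes, without Het 3 and, among 5 genes, with no filter on low counts. Its difference was 0.61 ± 0.64 in run 1 alone, 0.97 ± 0.30 with no upper limits and -0.02 ± 0.63 under the stricter rule. That rule left 15 to 61 non-cycling nuclei an animal and 5825 genes to test, of which 0 were called for KO and 2 for Het (Gm29683 and Kirrel3).

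The genes of lowest p are given as not called (edgeR adjusted p = 0.9999 for each gene in KO and 0.9998 for each in Het). Shisa9, an auxiliary protein of AMPA receptors at chromosome 16, 11984113 to 12270902 (mm10, + strand), stood at 47.1, 55.2 and 44.5 CPM in WT, 45.2, 53.2 and 39.4 CPM in Het and 72.1, 73.9 and 66.9 CPM in KO. The KO values lay above all others (log2 fold change 0.52 ± 0.14 SE), and with no upper limits on UMIs and genes the change was 0.25. Otud7a, a deubiquitinase, and Cacna1g, a T-type calcium channel, had 0.59 ± 0.17 and 0.63 ± 0.19, with 0.29 for Otud7a with no upper limits and -0.09 for Cacna1g in run 1 alone. Sumo2, a protein modifier at chromosome 11, 115523102 to 115536276, stood at 115, 105 and 113 CPM in WT and 78.4, 80.5 and 96.7 CPM in KO (-0.36 ± 0.1). Sox4, which helps newborn neurons mature, stood at 173, 174 and 174 CPM in WT, 167, 165 and 186 CPM in Het and 128, 133 and 155 CPM in KO (-0.31 ± 0.09). The KO and WT animals did not overlap for either. Sox4 overlaps the gene model Gm26735, and their reads may be shared. Its change was -0.05 in run 1 alone and -0.16 under the stricter rule, and that of Sumo2 was -0.24 with no upper limits. Mapk8ip2, a JNK scaffold, had -0.8 ± 0.24.

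In Het the lowest p belonged to a further 6 genes. Tmem38a, an intracellular cation channel, stood at 28.6, 27 and 29 CPM in WT and 16.8, 19.5 and 16.2 CPM in Het (log2 fold change -0.66 ± 0.17), with KO between them at 23.5 to 25.7 CPM. Sparcl1, a matrix protein, had -1.09 ± 0.29 in Het and Gm42418 had -0.41 ± 0.11. Gm42418 overlaps the gene models AY036118 and CT010467.1, so its reads are uncertain. With no upper limits the change of Sparcl1 was -0.26, and in run 1 alone that of Gm42418 was -0.21. With no filter on low counts, Sparcl1 and Gm42418 passed (edgeR adjusted p = 0.00867 and 0.00018; over all alternatives they ran up to 1). Ccdc134, Rras2, a small GTPase, and Cggbp1 had 0.76 ± 0.21, 0.64 ± 0.18 and 0.7 ± 0.2, which came to 0.50, 0.32 and 0.32 with no upper limits. Tmem38a had -0.30 under the stricter rule. Ccdc134 stood at 11.2 to 17.5 CPM in WT, 23.2 to 27.1 CPM in Het and 21.4 to 25.4 CPM in KO, so that both mutants lay above WT. Het and KO are set against the same 3 WT animals here.

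Of 322 genes in the 14 lists that were tested, without those of the rule, 0 were called in either contrast. All 3 KO animals lay above all 3 WT animals for 11 of them and below for 15, where 3.84% and 4.4% of all genes tested did so. For Het it was 7 above and 12 below, where 4.05% and 4.04% did. Among the 47 S-phase genes 5 lay above WT in KO and 3 below. Of the 47, 25 had a positive change, and the median log2 fold change was 0.05 (0.019 without WT 3). In KO 5 of the 47 had an unadjusted p under 0.05, as did 2.9% of all genes tested. These were Pola1 (log2 fold change 0.24 ± 0.09), Atad2 (0.19 ± 0.09), Mcm10 (0.31 ± 0.14), Exo1 (0.35 ± 0.16) and E2f8 (0.43 ± 0.17), none of them called at edgeR adjusted p = 0.9999. Pola1 is X-linked, and its change was 0.21 without WT 3. Among the 67 G2/M genes 2 lay above and 5 below, 19 had a positive change in KO, and the median was -0.06, where that over all genes was -0.0018. Plk1, the kinase that drives mitotic entry, had -0.47 ± 0.2 in KO and -0.44 ± 0.21 in Het. The summed G2/M level ran from 12830 to 13020 CPM in WT, 12390 to 13230 CPM in Het and 12160 to 12830 CPM in KO.

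All 29 radial glia genes had 95% intervals within 2-fold in both contrasts, with medians of -0.03 in KO and -0.13 in Het. Without WT 3 these medians were 0.02 and -0.08. Of the 29 genes 10 had a positive change in KO and 7 in Het. In KO 3 lay below all WT animals and 1 above, where 4.4% and 3.84% of all genes tested did so. In Het 3 lay below and 0 above, where 4.04% and 4.05% did. Sox2, which maintains neural stem cells, stood at 79.3, 82.3 and 80.1 CPM in WT, 78, 70 and 74 CPM in Het and 57.4, 64.5 and 69.9 CPM in KO, and the KO animals lay below all others. Its KO change was -0.31 ± 0.11, and Hes1 -0.34 ± 0.17 in KO and -0.38 ± 0.18 in Het, none called (edgeR adjusted p = 0.9999 in KO and 0.9998 in Het). Pax6 itself, a gene of the rule, stood at 412 to 477 CPM in WT, 384 to 463 CPM in Het and 412 to 442 CPM in KO. The 20 patterning genes tested had medians of 0.04 and -0.03 (0.07 and 0.04 without WT 3). For none of them did the 3 KO or the 3 Het animals stand wholly apart from WT. Gli3 had 0.05 ± 0.09 in KO and Lhx2 0.01 ± 0.1. The widest belonged to Rspo2, at 14.1 CPM, with 1.00 ± 0.70 in KO and -1.57 ± 1.00 in Het, where it passed only with no filter on low counts.

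No gene of the remaining pathway lists was called. Notch pathway genes had medians of -0.009 in KO and -0.013 in Het over 23 genes, cell-cycle exit genes 0.0064 and 0.012 over 16, and Wnt, FGF and hedgehog genes 0.0019 and -0.022 over 29. Within the last list Ctnnb1, the beta-catenin gene, had -0.26 ± 0.09 in KO and Lrp6, a Wnt co-receptor, 0.2 ± 0.09, neither called. Spindle and centrosome genes had 0.0057 and -0.0046 over 33 genes, and cyclins, kinases and E2F factors 0.011 and 0.029 over 25. The Myt1 family, joined with genes singled out by the study at E14, had 0.0096 and 0.032 over 14. Since the study chose part of that list on these animals, it is not independent evidence.

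No neuronal marker was called with the filter on low counts. Of 18 excitatory neuron markers 16 had a negative change in KO, with a median of -0.23 (-0.1 in Het). Without WT 3 the excitatory median was -0.2 in KO and -0.04 in Het. Of 16 neurogenic genes 13 had a negative change in KO, with a median of -0.15 (-0.03 in Het). Neurog2, the factor that starts excitatory neurogenesis, had -0.41 ± 0.18 in KO. By animal the excitatory sum was 2364, 1839 and 2217 CPM in WT, 2608, 1819 and 1866 CPM in Het and 2243, 1720 and 1777 CPM in KO, so the genotypes overlapped. Each KO animal lay below the WT animal of its number, and so it did for the neurogenic sum, at 701, 536 and 705 CPM in KO and 735, 664 and 734 CPM in WT. The 4 inhibitory markers tested had a median of -0.26, which turned to 0.19 without WT 3. The 3 genes tested of the non-neural, glial and Cajal-Retzius list had a median of -0.84. Among these 3 were Reln and Trp73 of Cajal-Retzius neurons, and the median is the value of Trp73. Reln stood at 207, 33.1 and 87.5 CPM in WT and 50.1, 31.6 and 26.9 CPM in KO (log2 fold change -1.52 ± 0.62, edgeR adjusted p = 0.9999), and it was called only with no filter on low counts. So was Ebf1 of the inhibitory list, which stood at 13, 18 and 88.5 CPM in WT and 15.2 to 25.1 CPM in KO. Its log2 change was -0.96 ± 0.59 with the filter and 0.36 without WT 3, the female. The excitatory, inhibitory, Reln and Trp73 levels in the members stood below those of pallial nuclei with fewer mitotic genes, and the part of free RNA or of mixed nuclei in them was not tested.

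**Figure D5:**
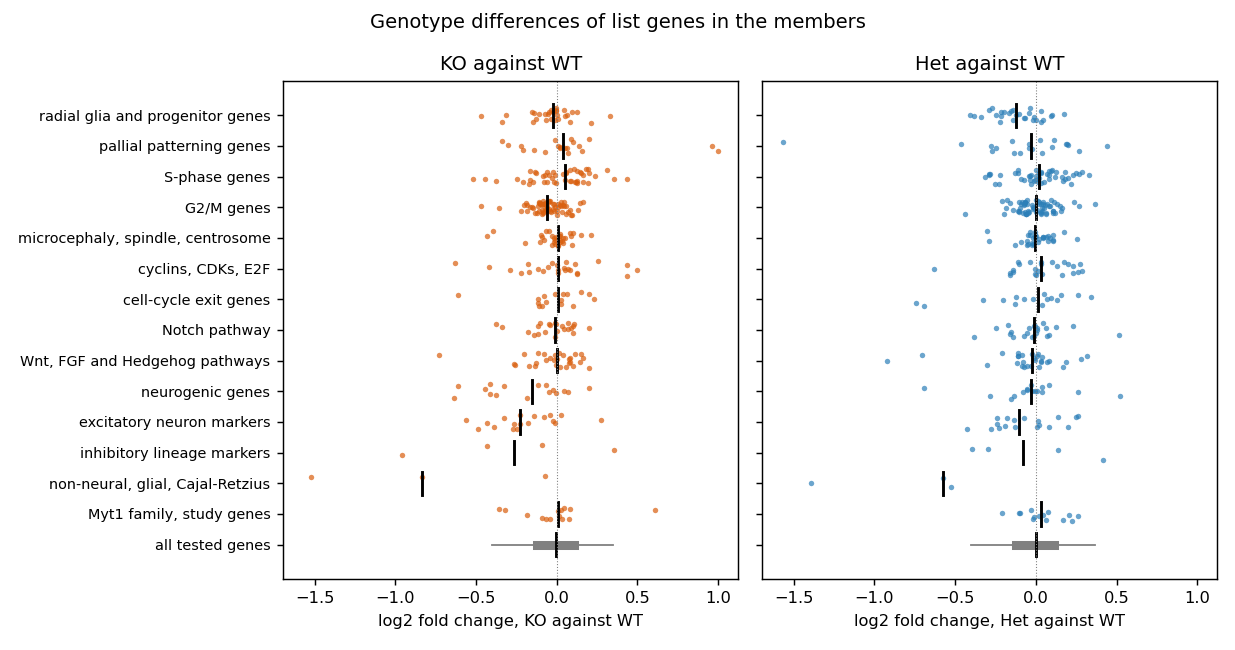
Log2 fold change of each list gene tested, in the members, for KO against WT (left) and Het against WT (right). Points are genes, black ticks are list medians, and the last row gives the 5th to 95th percentile (line), the middle of the distribution (thick line, 25th to 75th percentile) and the median of all genes tested. List medians in KO sat near 0 except for neurogenic (-0.15), excitatory (-0.23) and inhibitory markers (-0.26, but 0.19 without WT 3). Another exception in KO was the non-neural, glial and Cajal-Retzius list (-0.84). In Het the exceptions were radial glia (-0.13, but -0.08 without WT 3) and excitatory markers (-0.1, but -0.04 without WT 3). A further exception was the non-neural, glial and Cajal-Retzius list (-0.58). Its 3 genes tested included Reln and Trp73 of Cajal-Retzius neurons. The Het inhibitory median was -0.08, but 0.55 without WT 3. In either contrast 0 genes were called.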

How the data were processed

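Nuclei of 9 E14 forebrains in 18 libraries were barcoded, mapped to mm10 and counted with ScaleRna 1.4, and called with CellFinder of ScaleRna 1.5. The deposited values are the authors' estimated counts, UMIs per gene and nucleus, of which 6.87% to 9.13% of entries a library were not whole. The annotation release was not given in the sources used here. Of 261143 barcodes, 201913 had 800 to 6000 UMIs, 300 to 3000 genes and at most 1% mitochondrial UMIs. Doublets were kept in, and 89 members (2.06%) lay in the top 5% of Scrublet scores. Member counts were summed per animal over both runs, rounded and tested with edgeR 4.0.16 (quasi-likelihood, filterByExpr, TMM, all 9 animals, genotype only) in R 4.3.3, and shares with limma 3.58.1 on log odds. The limma fit moderated the spread over 7 shares of unlike kinds. DESeq2 1.42.0 was an alternative, as were other filters, runs, depths, rules and left-out animals. The tests were checked on simulated data. There the changed genes were drawn from those of higher count, all sets were changed at once, and counts were drawn independently for each animal. For KO against WT, 49 of 50 genes raised 2-fold and 41 of 50 lowered to 0.5-fold were called. At 1.5-fold 18 of 50 were called and at 0.667-fold 24 of 50, with 6 false calls. Smaller changes could thus be missed. Recovery was not simulated for genes of low count, for few changed genes or for animals that deviate together.

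Members and lists were chosen with earlier results of these data known. Named genes were the rule genes, the 12 with the largest folds over each reference among genes of at least 50 CPM, list genes of highest level, and, where no gene was called, the 3 of lowest p in each direction at 20 CPM or more. Further list genes were picked after their values were seen. The labels do not say whether replicate numbers pair animals. Same-numbered KO and WT animals deviated together in these data (r = 0.21, 0.137 and 0.109). The numbers were therefore taken to pair them in descriptions and in the replicate block, and the main tests leave the pairing out. WT 3 and Het 3 reached only 0.0567, below the 0.0833 of WT 2 and Het 3. Pallial nuclei called non-cycling had none of the 6 mitotic genes. Cycling Dlx nuclei had at least 3, with Dlx1 or Dlx6os1, and cycling Eomes nuclei had at least 3, with Eomes. Excitatory neurons had at least 2 of Neurod2, Neurod6 and Tbr1, and microglia at least 2 of C1qa, C1qb, Csf1r, Cx3cr1 and P2ry12. Intervals are at the 95% level. Some genes that this rule names are not reported here.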

Additional observations from a re-analysis of the deposited data

How the results depend on the processing

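Among alternative values for calls and shares, 170 kept their direction and their side of the threshold, 16 changed direction and 10 gained calls. With no filter on low counts 15 genes were called in KO (1 higher, 14 lower) and 17 in Het (4 higher, 13 lower) of 30978. The sex-linked Xist, Tsix and Uty were among both, Eif2s3y among those of Het, and the mitochondrial mt-Nd4, mt-Nd5, mt-Rnr1 and mt-Rnr2 among those of KO. The part of sex and of RNA quality in these calls was not tested. There were 5 and 8 calls for the change in cycling minus non-cycling nuclei. For that change, at least 4 cycling genes gave 1 call in KO (Epha6) and the stricter radial glia rule gave 2 in Het (Gm29683 and Kirrel3). Leaving out 1 animal gave 0 to 1 in KO, with Epha6 without Het 3, and 0 to 3 in Het, with 1 without WT 2 and 3 without Het 1. Both genotype contrasts stayed at 0 calls without any 1 animal. With the replicate block 0 genes were called in KO and 0 in Het, and 1 (Epha6) for the KO change in cycling minus non-cycling nuclei. The block changed no other call.

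On the log odds scale the share of all nuclei in KO turned to -0.103 under the stricter rule and ran from -0.178 (without WT 1) to 0.138 without 1 animal, with -0.0279 without KO 2. In Het it was -0.261 in run 1 alone and 0.0104 with no upper limits and ran from -0.251 to 0.0648 (without WT 2), with 0.0138 without WT 3 and 0.0594 without Het 1. The share of pallial nuclei with at least 3 mitotic genes in KO was -0.148 in run 1 alone, 0.0621 after thinning and 0.0114 with no upper limits, and ran from -0.134 (without WT 1) to -0.00429 (without WT 3) without 1 animal, with -0.0377 without WT 2. In Het it was -0.251 in run 1 alone, 0.0377 in run 2 alone, 0.168 after thinning, 0.0458 with no upper limits, 0.00483 with at least 4 cycling genes and 0.0309 under the stricter rule, and -0.106 to 0.0239 (without WT 3) without 1 animal. The S-phase share in KO was 0.043 with no upper limits, 0.193 in run 1 alone, 0.0446 in run 2 alone and 0.162 under the stricter rule, and ran from 0.0644 to 0.0978 without 1 animal. In Het it ran from -0.0179 (without Het 3) to 0.0683. None of these shares passed the test. Cacna1g in KO was -0.0913 in run 1 alone. The stricter rule was chosen after seeing the data. The cause of these changes was not tested. Detection of rule genes depends on depth, and 3 animals a group limit the shares.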

Other observations

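The animals numbered 1 stood apart in several genes whatever their genotype. Sfrp1 in the members stood at 303.9 CPM in WT 1, 260.4 CPM in Het 1 and 271.1 CPM in KO 1, against 615.2 to 656.7 CPM in the other 6 animals. Mki67 stood at 1040, 975 and 875 CPM in the same 3 animals and at 1230 to 1500 CPM in the others. Myt1l stood at 134, 145 and 108 CPM there and at 46.9 to 78.1 CPM in the others. The animals were picked after these values were seen, and no test was made.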
